A study of Hyphopichia burtonii with 8 samples.

Results

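The 4 libraries of Hyphopichia burtonii cultured in salt were pooled into 1 group and compared with the 2 libraries cultured in sorbitol. Membership followed the medium in the labels and no measured value: 2 libraries from YPD with 1 M NaCl and 2 from YPD with 1 M KCl formed the salt group, and 2 from YPD with 1 M sorbitol formed the other. These are 6 of the 8 libraries of the series. The remaining 2, from YPD alone, were the control of the study. They took no part in the test and are given below only as levels.

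All libraries came from the wild-type strain KJJ43, whose source was Nuruk, the starter cake of Korean rice brewing. Precultured cells entered each medium at an OD600 of 0.6 and grew for 1 h. RNA from an OD of 5 was then sequenced with a strand-marking kit. YPD is a rich glucose medium, and the salt and sorbitol media shared it as their base. The RNA is from bulk cultures, so more cells with a response and a stronger response per cell cannot be told apart. The sources used here do not say whether the duplicates were separate cultures, so p-values below measure only the spread between these libraries, which may be technical. The 4 salt libraries are also 2 media with 2 libraries each and not 4 repeats of 1 condition.

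Sorbitol is an uncharged sugar alcohol that draws water out of cells. NaCl and KCl do so too, but they also bring a metal cation and chloride into the medium. In other yeasts the first response to water loss runs through the HOG (high-osmolarity glycerol) kinase pathway and ends in the build-up of glycerol, while sodium, which is toxic, is pumped out or stored in the vacuole and potassium is the main cation of the cytoplasm. Because salts dissociate, a salt medium has a higher osmolarity than a sorbitol medium of the same molarity. The ions and the higher osmolarity therefore cannot be told apart in this comparison.

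The files held 6166 genes with 1 value each per library, taken as FPKM (fragments scaled to gene length and library depth). Of these, 5748 reached 1 FPKM in at least 2 of the 6 libraries and were tested, 2334 of them with a symbol. The summed FPKM lay between 1197308 and 1428950 in the salt libraries and at 1520928 and 1649003 in sorbitol, and the 10 most abundant genes took 10.8% to 12.3% of it in salt and 14.1% and 14.2% in sorbitol. The part of this difference in the results was not tested as such. With each library brought to the same distribution (quantile normalization), all 187 genes called below kept their direction but only 61 of them stayed called, of 64 calls in all. The relative depth of the 6 libraries, estimated from the step between low values, differed by a factor of 1.83, lowest in KCl 2. Across genes, the log2 values of the KCl libraries correlated with sorbitol at r between 0.968 and 0.981 and with NaCl at r between 0.955 and 0.966, so KCl was nearer to sorbitol than to NaCl. Genes are not independent replicates, and these correlations are descriptions.

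A gene was called higher or lower in salt at an adjusted p under 0.05 in limma's test on log2(FPKM + 1), with Benjamini-Hochberg adjustment over all 5748 genes. By this rule 187 genes were called, which is 3.25% of those tested. Of these, 118 genes (2.05%) were higher in salt and 69 genes (1.2%) were lower. The median log2 difference over all tested genes was 0.01, and 119 called genes differed by at least 1 on the log2 scale, 69 of them upwards. The 4 salt libraries lay above both sorbitol libraries for 1128 genes (19.6%) and below both for 1011 genes (17.6%), and the 187 called genes were all among these. The differences are on the log2(FPKM + 1) scale, which understates the change of genes near 1 FPKM.

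The pooled test counts the difference between NaCl and KCl as spread, so a gene is called more readily where the salts had like levels. With NaCl, KCl and sorbitol as 3 separate groups and the mean of the salts set against sorbitol, 1200 genes (20.9%) were called, 700 higher (12.2%) and 500 lower (8.7%), and the 187 were all among them. That 3-group count is given beside the pooled one for most groups of genes below. The pooled calls depended on which libraries were in the fit. Leaving out KCl 1 gave 621 calls, while leaving out any other library gave 15 or fewer (10 and 9 without NaCl 1 and 2, 15 without KCl 2, 2 without either sorbitol library). All 187 kept their sign and an unadjusted p under 0.05 in each of these 6 fits. With the replicate number as a block 15 genes were called, 5 higher and 10 lower, and 14 of them were among the 187. For the gene lists below, only MET3 and INO1 stayed called with the block. Adjusted p-values lay over 0.04 for 136 of the 187 genes. At an unadjusted p under 0.05 there were 1407 of the 5748 genes, 781 higher and 626 lower. Where a group of genes had no call in limma's pooled test its count at that level is given. List counts below are to be read beside these, and beside the 2.05% called higher and 1.2% called lower over all genes. The 3-group counts of a list are to be read beside 12.2% higher and 8.7% lower. Counts of members with all salt libraries above or all below sorbitol are to be read beside 19.6% and 17.6%. A single call says little about a list. For most lists only quantile normalization and the replicate block are given below, and other settings removed calls too. Without limma's trend of variance on expression level (the intensity trend) 83 genes were called.

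The largest differences belonged to genes without a symbol in the annotation. HYPBUDRAFT_152633 had 791 and 858 FPKM in NaCl, 1075 and 952 in KCl, and 39.8 and 71.3 in sorbitol, a log2 difference of 4.07 ± 0.25 (SE, adjusted p = 0.0015). HYPBUDRAFT_148171 had 97.7 and 98.5 FPKM in NaCl, 110 and 107 in KCl, and 3.80 and 7.15 in sorbitol (log2 4.06 ± 0.22, adjusted p = 0.0013). In both genes the salt libraries were close together and far above sorbitol, and YPD, with means of 35.4 and 8.90 FPKM, lay near the sorbitol level. These were also the only named genes whose call held with each of the 6 libraries left out, and it held with the block and with quantile normalization too.

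Downwards, HYPBUDRAFT_105838 had 8.28 and 18.6 FPKM in NaCl, 23.1 and 21.9 in KCl, and 515 and 453 in sorbitol (log2 -4.76 ± 0.38, adjusted p = 0.0032). HYPBUDRAFT_157712 had 13.4 and 17.0 FPKM in NaCl, 26.5 and 31.4 in KCl, and 479 and 526 in sorbitol (log2 -4.52 ± 0.33, adjusted p = 0.0031). Both were abundant in sorbitol and low in every salt library, and YPD held 319 FPKM of the first and 136 of the second. Both calls held with any 1 of the 4 salt libraries left out, and with a sorbitol library left out the adjusted p reached 0.0981 in the first gene and 0.0851 in the second. In all, 103 of the 187 called genes had no symbol.

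Among genes with a symbol, AHP1, a thiol peroxidase that removes organic peroxides, rose most. It had 289 and 302 FPKM in NaCl, 72.0 and 81.0 in KCl, and 9.45 and 8.70 in sorbitol (log2 3.91 ± 0.64, adjusted p = 0.041). Every salt library was far above sorbitol, and NaCl was above KCl. MLS1, the malate synthase of the glyoxylate cycle, followed with a log2 difference of 2.52 ± 0.48 (adjusted p = 0.046) and RFG1, a repressor of filamentous growth in Candida albicans, with 2.28 ± 0.42 (adjusted p = 0.046). TEN1, which takes part in capping telomeres, rose by 1.70 and GDE1, which splits glycerophosphocholine, by 1.68. BMN1, named after a beta-mannosyltransferase, rose by 1.58 and IFG3 by 1.44. Of the 12 largest rises and 12 largest falls, whose values the plot of these genes shows library by library, DIT1, DIT2 and INO1 alone stayed called with the replicate block.

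**Figure D1:**
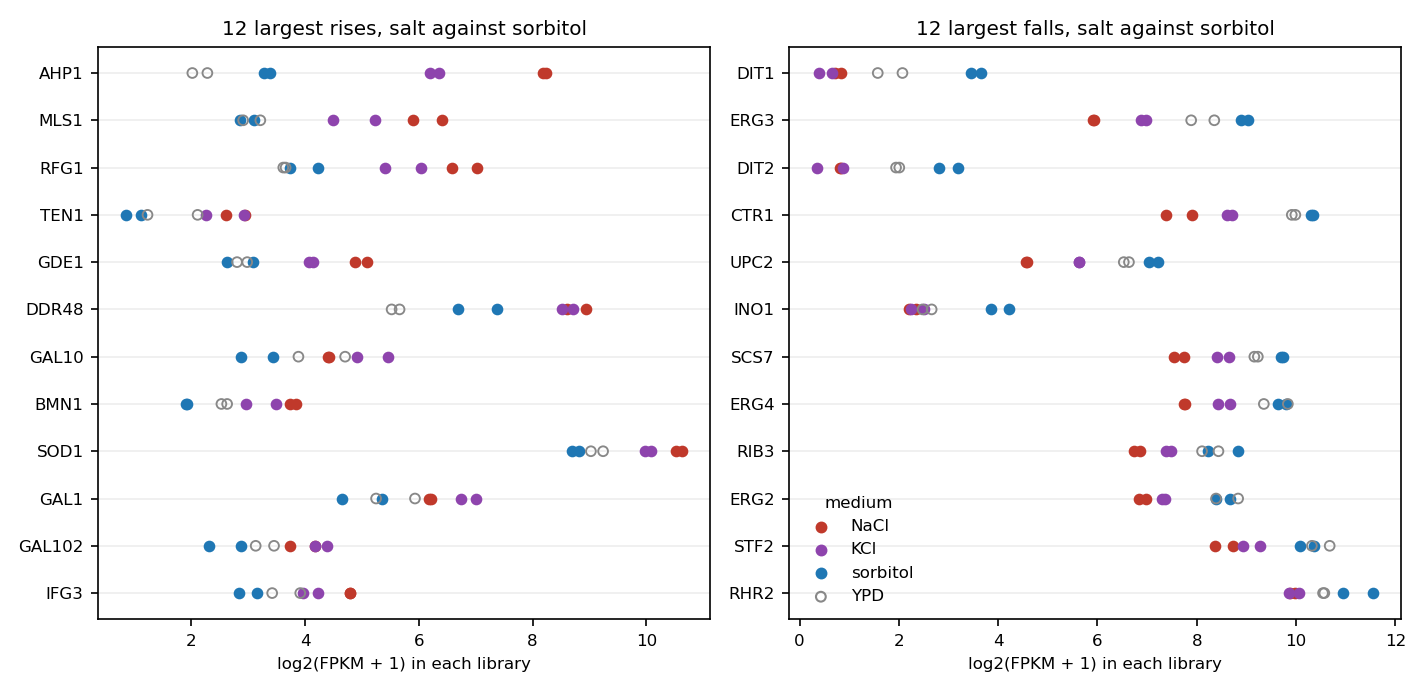
Level of each gene in each library as log2(FPKM + 1), for the 12 largest rises (left) and 12 largest falls (right) among called genes with a symbol; points are single libraries, coloured by medium, with YPD shown though it took no part in the test. In every row the 4 salt points lie on 1 side of both sorbitol points, and AHP1, ERG3, UPC2 and CTR1 also show NaCl and KCl apart.

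Of the gene lists, sterol synthesis and its regulator had the most called falls. Ergosterol is the main sterol of yeast membranes, and its last steps reshape the ring and side chain. Of 29 tested genes of the list 6 were called lower and none higher, with a median log2 difference of -0.61. Quantile normalization left 3 of the 6 calls and the replicate block none. All 4 salt libraries lay below both sorbitol libraries in 23 of the 29. With the salts as separate groups 21 were lower and none higher. The medians of the list in single libraries, relative to the sorbitol mean, were -0.79 and -0.72 in NaCl and -0.38 and -0.47 in KCl.

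ERG3, the C-5 desaturase, had 60.1 and 59.0 FPKM in NaCl, 125 and 117 in KCl, and 526 and 477 in sorbitol (log2 -2.55 ± 0.35, adjusted p = 0.027). The 3 media did not overlap, with NaCl lowest, KCl between and sorbitol highest. The C-24 reductase gene ERG4 fell by 1.56 ± 0.29 on the log2 scale (adjusted p = 0.046), the C-8 isomerase gene ERG2 by 1.41 ± 0.20 (adjusted p = 0.027) and the C-22 desaturase gene ERG5 by 1.25 ± 0.15 (adjusted p = 0.025). ERG6, the C-24 methyltransferase, fell by 0.88. UPC2, the transcription factor that turns on sterol genes in other yeasts, had 22.7 and 22.9 FPKM in NaCl, 48.4 and 48.5 in KCl, and 131 and 148 in sorbitol (log2 -2.03 ± 0.36, adjusted p = 0.046). Its order of media was that of ERG3.

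Of 39 tested genes for fatty acids, sphingolipids and phospholipids, 4 were lower and none higher, with a median of 0.06. Quantile normalization left 1 fall and gave 1 rise, and the replicate block left 1 fall, in each case INO1. In the 3-group fit 10 were lower and 4 higher, beside 8.7% lower and 12.2% higher over all tested genes. SCS7, which hydroxylates the fatty acid of sphingolipids, had 212 and 186 FPKM in NaCl, 399 and 338 in KCl, and 835 and 854 in sorbitol (log2 -1.64 ± 0.32, adjusted p = 0.046). DES1, a sphingolipid desaturase, fell by 0.86 on the log2 scale, and ACC1, the acetyl-CoA carboxylase that starts fatty acid synthesis, by 0.70. INO1, which makes inositol phosphate for phospholipids, had 3.60 and 4.08 FPKM in NaCl, 3.72 and 4.67 in KCl, and 13.5 and 17.7 in sorbitol (log2 -1.72 ± 0.19, adjusted p = 0.020). INO1 was alike in both salts, and its YPD mean of 4.95 FPKM was near the salt level. The inositol transporter gene ITR1 had a log2 difference of -2.05 that did not pass (adjusted p = 0.071).

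Some genes for folding and moving proteins through the endoplasmic reticulum (ER) were higher in salt. Of 17 tested members 5 were called higher and none lower, with a median log2 difference of 0.62, and in 15 of the 17 all salt libraries lay above both sorbitol libraries. Quantile normalization left 2 of the 5 calls, PDI1 and SEC61, and the replicate block none. Without the intensity trend 2 genes of the list were called. Of the 12 uncalled members ERO1 differed by 0.15 (adjusted p = 0.63) and IRE1, the sensor of unfolded proteins, by -0.25 (adjusted p = 0.34). Counted with 3 groups, 12 were higher and none lower. The medians of the list relative to sorbitol were 0.70 and 0.64 in NaCl and 0.68 and 0.50 in KCl, so the 4 libraries were close together. In YPD they were 0.19 and 0.38.

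PDI1, which forms disulfide bonds in new proteins, had 592 and 568 FPKM in NaCl, 730 and 641 in KCl, and 298 and 280 in sorbitol (log2 1.12 ± 0.15, adjusted p = 0.027). SEC61, the channel through which proteins enter the ER, had 396 and 336 FPKM in NaCl, 409 and 324 in KCl, and 194 and 181 in sorbitol (log2 0.96 ± 0.16, adjusted p = 0.041). PDI1 was slightly higher in KCl than in NaCl, SEC61 was alike in both, and both genes stood clear of sorbitol in every salt library. WBP1 and STT3, subunits of the oligosaccharyltransferase that attaches N-glycans, rose by 1.01 ± 0.20 and 0.92 ± 0.18 (adjusted p = 0.048 and 0.046). SEC13, a coat protein of vesicles that leave the ER, rose by 0.62.

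Further called genes of glycan synthesis and secretion stood outside the naming rule and were picked after their values were seen. Uncalled genes of this kind were not counted, so these rises do not give the share of such genes that changed. Of all 187 called genes 61 stayed called with quantile normalization and 14 with the replicate block. DPM2, a subunit of dolichol phosphate mannose synthase in other fungi, had 254 and 244 FPKM in NaCl, 218 and 221 in KCl, and 111 and 86.0 in sorbitol (log2 1.25 ± 0.16, adjusted p = 0.027). Its partners DPM3 and DPM1 rose by 0.87 and 0.77. MCD4 and GPI19, which build the glycolipid anchor of surface proteins, rose by 1.21 and 0.98. ROT2, a glucosidase that trims N-glycans, rose by 0.97, the signal peptidase subunit gene SPC2 by 0.89, the cargo receptor genes ERP5 and ERV29 by 0.80 and 0.71, and the Golgi protease gene KEX2 by 0.66.

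The cell wall list, 72 tested genes, had 4 called higher and none lower, at a median of -0.09. Quantile normalization left 2 of the 4, PMT4 and MNT2, and the replicate block none. Without the intensity trend no wall gene was called. In it 23 genes (31.9%) had all salt libraries above sorbitol and 22 (30.6%) had all below. Over all tested genes these shares were 19.6% and 17.6%. PMT4, which attaches mannose to proteins in the ER, had 262 and 203 FPKM in NaCl, 228 and 181 in KCl, and 120 and 105 in sorbitol (log2 0.94 ± 0.18, adjusted p = 0.046). MNT2, a mannosyltransferase that extends such chains, rose by 0.85. CRH11, a cross-linker of chitin and glucan, rose by 0.97, and ACF2, an endoglucanase, by 0.87. By the 3-group fit, 18 wall genes were higher and 7 lower, beside 12.2% higher and 8.7% lower over all tested genes.

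DNA replication, histone and cell cycle genes had 6 of 63 called higher and none lower, with a median log2 difference of 0.33. Quantile normalization left 1 of the 6 calls, SMC1, and the replicate block none. Without the intensity trend 2 genes of the list were called, and without the filter on low values also 2. In 26 of the 63 all salt libraries lay above both sorbitol libraries, and none had all below. With the salts as separate groups 18 were higher and none lower. The medians relative to sorbitol were 0.29 and 0.35 in NaCl and 0.34 and 0.39 in KCl.

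POL3, the catalytic subunit of DNA polymerase delta, had 19.3 and 13.9 FPKM in NaCl, 9.29 and 16.0 in KCl, and 3.98 and 5.52 in sorbitol (log2 1.41 ± 0.29, adjusted p = 0.048). The salts overlapped each other and lay above sorbitol. The primase subunit gene PRI2 rose by 1.28 ± 0.25, the cohesin gene SMC1 by 1.26 ± 0.18 and POL1, the catalytic subunit of polymerase alpha, by 1.11 ± 0.19. RFA2, which binds single-stranded DNA, rose by 0.98, and POL30, the sliding clamp, by 0.88. Their YPD levels were near sorbitol, for example 9.56 FPKM of POL1 in YPD against 11.2 and 11.4 in sorbitol.

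**Figure D2:**
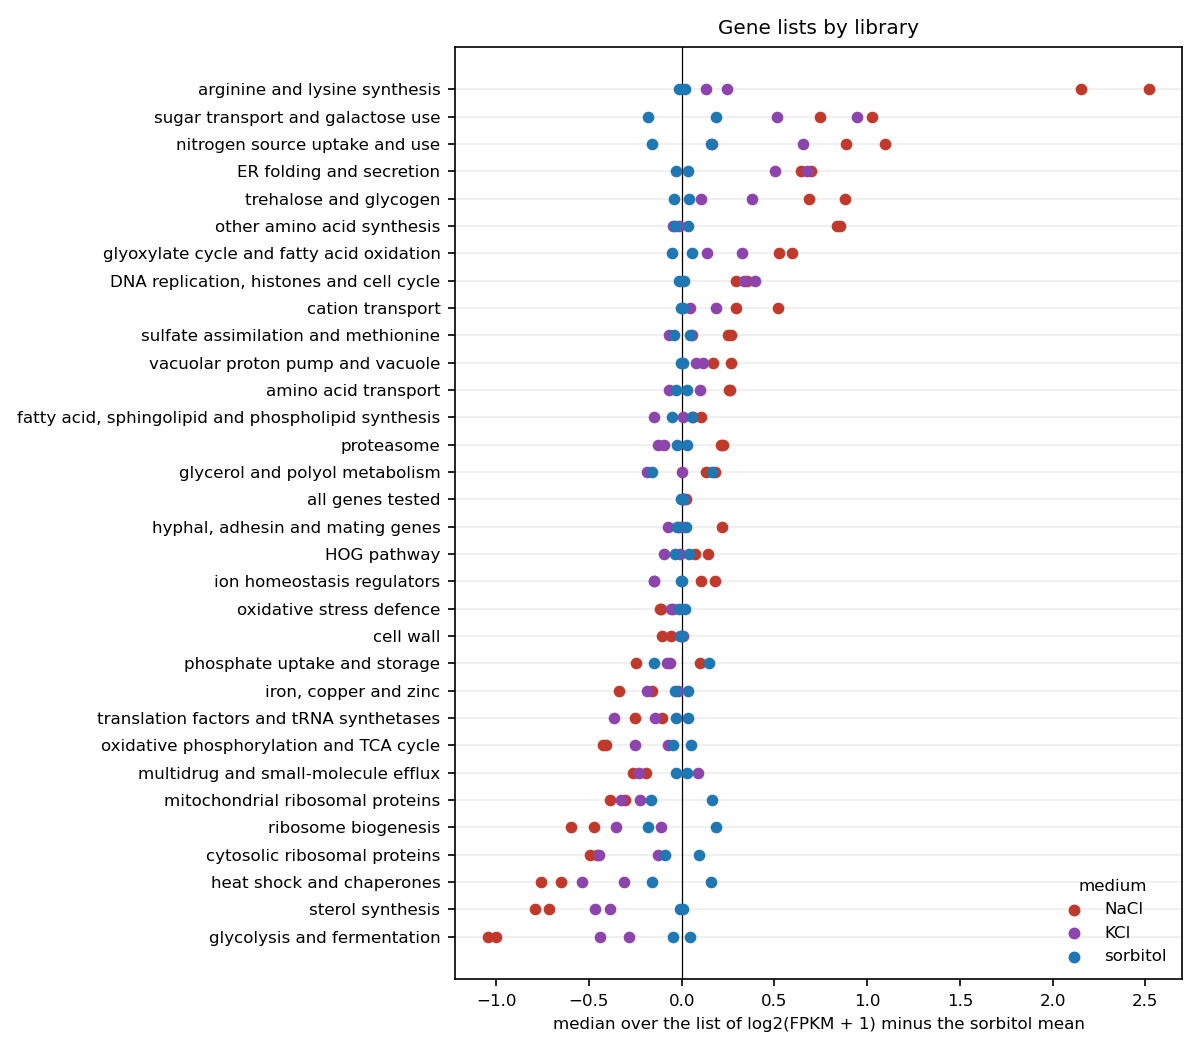
Median over each gene list of log2(FPKM + 1) minus the sorbitol mean, with 1 point per library coloured by medium and all tested genes as a row of their own. All 4 salt points of the ER and DNA replication lists lie to the right of 0 and close together, those of the sterol and glycolysis lists lie to the left, and in the arginine and lysine list NaCl, at 2.52 and 2.15, stands far from KCl.

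RNA of 2 genes of glycerol synthesis was lower in salt. RHR2, the glycerol-3-phosphate phosphatase that releases glycerol, had 1009 and 945 FPKM in NaCl, 929 and 1066 in KCl, and 1987 and 3013 in sorbitol (log2 -1.31 ± 0.19, adjusted p = 0.029). GPD1, the dehydrogenase of the step before it, had 806 and 748 FPKM in NaCl, 964 and 930 in KCl, and 1385 and 1728 in sorbitol (log2 -0.85 ± 0.17, adjusted p = 0.048). The salts had like levels of RHR2, KCl was slightly above NaCl in GPD1, and all were under sorbitol. The YPD means, 1507 FPKM of RHR2 and 1251 of GPD1, lay between salt and sorbitol, with sorbitol above the control medium and salt below it. Neither call held with quantile normalization or with the replicate block.

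The list of glycerol and polyol metabolism had 10 tested genes, of which 1 was higher and 3 were lower, with a median of 0.04. Quantile normalization left the rise and none of the falls, and the replicate block left no call. XYL2, named after xylitol dehydrogenase, which also oxidizes sorbitol in other yeasts, had 84.4 and 89.0 FPKM in NaCl, 121 and 115 in KCl, and 209 and 237 in sorbitol (log2 -1.13 ± 0.19, adjusted p = 0.044). Sorbitol was thus the medium with the most XYL2 RNA, and YPD, at a mean of 156 FPKM, came next. ARD, an arabitol dehydrogenase, rose by 0.94 ± 0.17 (adjusted p = 0.046). The aldose reductase gene GRE3 had a log2 difference of 0.82 (adjusted p = 0.17) and the second glycerol-3-phosphate dehydrogenase gene, GPD2, of -0.05 with values from 106 to 633 FPKM in salt. The glycerol kinase gene GUT1 (0.13), the mitochondrial dehydrogenase gene GUT2 (0.14), the dihydroxyacetone kinase gene DAK2 (0.41) and HGT10, a glycerol symporter gene of Candida albicans (-0.35), did not pass. AQY1, a water channel outside the list and picked after its values were seen, fell from 780 and 603 FPKM in sorbitol to 291 and 282 in NaCl and 372 and 321 in KCl (log2 -1.12 ± 0.18, adjusted p = 0.040).

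None of the 24 tested HOG pathway genes passed, 3 had an unadjusted p under 0.05 (1 higher, 2 lower), and their median difference was 0.00 (-0.080 with quantile normalization). In the 3-group fit 1 was lower and none higher. HOG1, the kinase itself, had 151 and 137 FPKM in NaCl, 130 and 126 in KCl, and 118 and 126 in sorbitol, a log2 difference of 0.16 ± 0.14 (adjusted p = 0.52). KCl 2 and sorbitol 2 were level. The largest difference in the list was that of RCK2, a kinase downstream of HOG1, at -0.54 ± 0.14 (adjusted p = 0.083). The upstream sensor genes SLN1 (-0.41), NIK1 (0.32) and CHK1 (-0.30), the kinase genes SSK2 (0.03), STE11 (0.01) and PBS2 (-0.35), and the phosphatase genes PTC1 (-0.46), PTC2 (-0.37), PTP2 (0.00) and PTP3 (-0.52) did not pass.

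**Figure D3:**
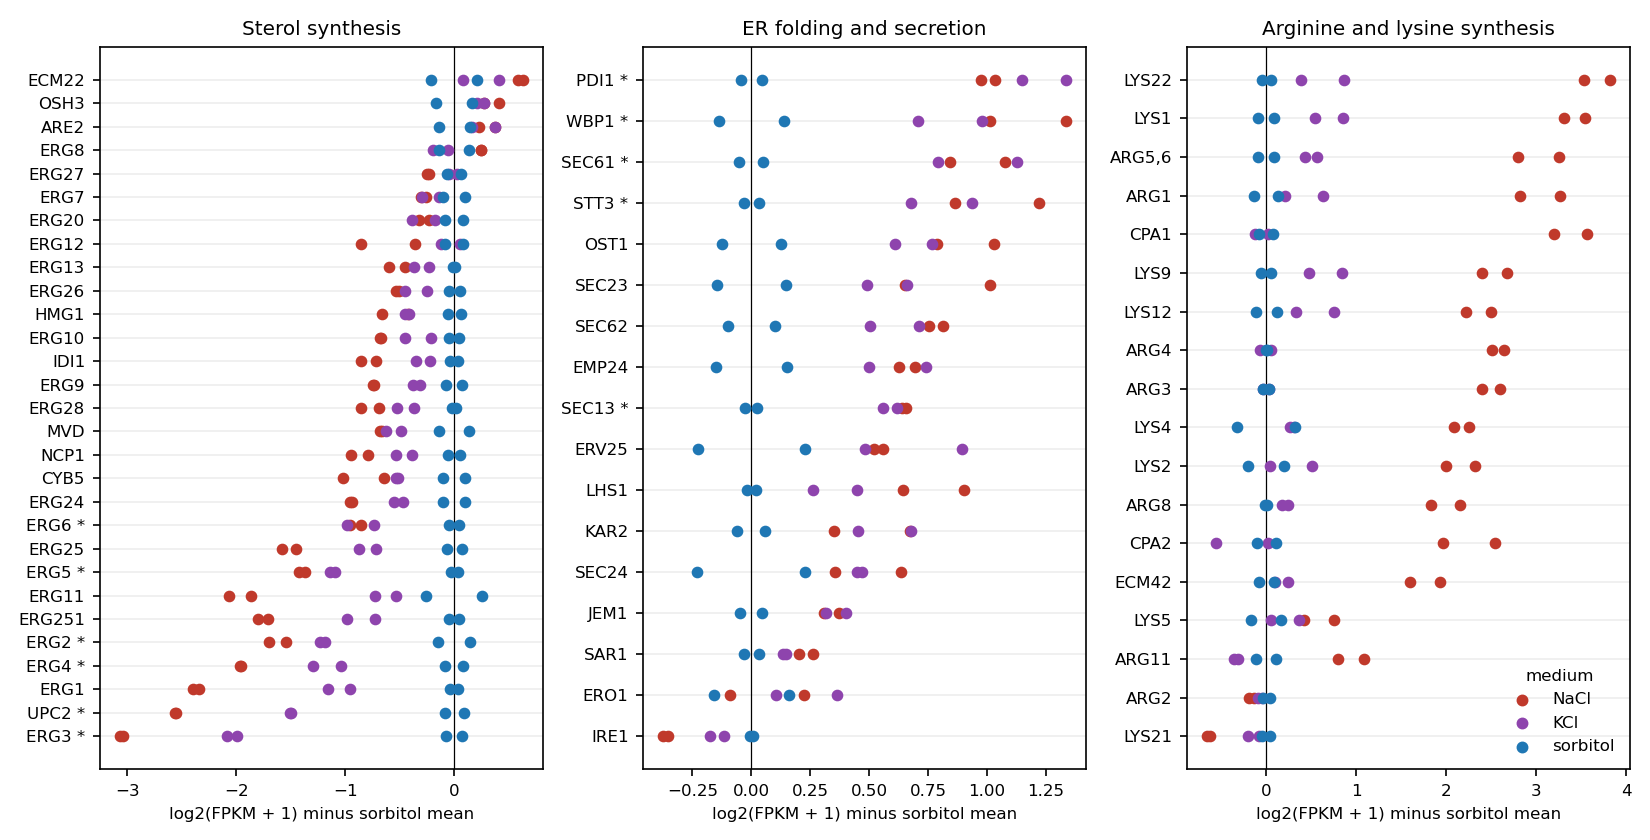
Members of 3 gene lists in single libraries, as log2(FPKM + 1) relative to the sorbitol mean, coloured by medium, with an asterisk beside genes called in the pooled test. Most sterol genes lie left of sorbitol in both salts and most ER genes lie right of it, while most arginine and lysine genes lie far right in NaCl and near 0 in KCl.

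Cation transport had no call among 15 tested genes, of which 3, all higher, had an unadjusted p under 0.05 (781 of all 5748 tested genes were higher at that level), at a median of 0.30. Counted with 3 groups, 4 were higher and none lower. HAK1, a high-affinity potassium importer, had 62.5 and 58.1 FPKM in NaCl, 4.26 and 3.75 in KCl, and 8.77 and 7.54 in sorbitol. NaCl lay above sorbitol and KCl below it, so pooling gave a log2 difference of 0.94 ± 1.17 (adjusted p = 0.65). Between the salts the difference was 3.62 (adjusted p = 0.00013).

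CNH1, a sodium and proton antiporter of the plasma membrane, had 56.1 and 51.5 FPKM in NaCl, 66.9 and 79.4 in KCl, and 35.9 and 42.0 in sorbitol, a log2 difference of 0.67 ± 0.20 (adjusted p = 0.11). All salt libraries were above sorbitol, and the difference did not pass. PHO89, a sodium-coupled phosphate transporter, ran from 1.17 to 9.39 FPKM in salt against 0.512 and 0.135 in sorbitol (log2 1.90 ± 0.57, adjusted p = 0.11). PMA1, the proton pump that energizes the membrane, differed by -0.14 and the vacuolar antiporter gene NHX1 by -0.26. The potassium carrier gene TRK1 (0.00) and the potassium channel gene TOK1 (0.01) had differences near 0, and the calcium pump genes PMC1 (0.59) and PMR1 (0.31) did not pass. None of 14 tested regulators of ion homeostasis passed either, with 1 positive and 1 negative difference under an unadjusted p of 0.05 and a median of -0.04. Among them the calcineurin genes CMP1 (0.03) and CNB1 (0.22) and their target factor CRZ1 (-0.10) had small differences, and the protease gene RIM13 had -0.84 (adjusted p = 0.14). CMK2, a calmodulin-dependent kinase outside these lists and picked after its values were seen, rose by 0.73 (adjusted p = 0.046).

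Oxidative stress defence moved in both directions, with 3 of 20 tested genes higher and 2 lower at a median of -0.05. SOD1, the copper and zinc superoxide dismutase, had 1462 and 1584 FPKM in NaCl, 1088 and 1003 in KCl, and 411 and 448 in sorbitol (log2 1.55 ± 0.22, adjusted p = 0.027). DDR48, a stress protein, had 388 and 489 FPKM in NaCl, 417 and 364 in KCl, and 165 and 103 in sorbitol (log2 1.66 ± 0.22, adjusted p = 0.027). With AHP1, these were the 3 rises, and none overlapped with sorbitol. Quantile normalization left 2 rises and 2 falls of the list, AHP1 not among them, and the replicate block none. GPX3, a glutathione peroxidase, fell by 1.27 ± 0.19 (adjusted p = 0.029) and CCP1, the mitochondrial cytochrome c peroxidase, by 1.09 ± 0.15 (adjusted p = 0.027). By the 3-group fit, 6 of the list were higher and 6 lower.

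Of 21 heat shock and chaperone genes 1 was lower and none higher, at a median of -0.57, and that call was lost with quantile normalization and with the replicate block. In 13 of them all salt libraries lay below sorbitol, and with the salts as separate groups 11 were lower. HSP78, a mitochondrial disaggregase, had 52.3 and 45.2 FPKM in NaCl, 50.8 and 41.8 in KCl, and 83.4 and 121 in sorbitol (log2 -1.07 ± 0.19, adjusted p = 0.046). HSP104, its counterpart in the cytosol, had a log2 difference of -1.45 ± 0.30 that missed the threshold (adjusted p = 0.0501), with 102 and 202 FPKM in sorbitol. The sorbitol libraries themselves differed in both genes.

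Trehalose is a sugar that yeasts store and that shields proteins under stress. TPS1, its synthase, had 161 and 152 FPKM in NaCl, 204 and 175 in KCl, and 307 and 325 in sorbitol (log2 -0.87 ± 0.16, adjusted p = 0.046). It was the only call among 13 tested trehalose and glycogen genes, whose median was 0.54, and it was lost with quantile normalization and with the replicate block. With the salts as separate groups 2 were higher and 3 lower. The phosphatase gene TPS2 had a difference of -1.23 that did not pass (adjusted p = 0.068), and the glycogen phosphorylase gene GPH1 one of 1.33.

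Glycolysis had 1 of 30 genes lower and none higher, at a median log2 difference of -0.64. Quantile normalization gave a median of -0.33 and no call, and the replicate block gave no call. PFK1, a phosphofructokinase subunit, had 1329 and 1387 FPKM in NaCl, 1992 and 1878 in KCl, and 3429 and 3539 in sorbitol (log2 -1.10 ± 0.21, adjusted p = 0.046). The order NaCl, KCl, sorbitol held without overlap. In 16 of the 30 genes all salt libraries lay below sorbitol, and with the salts as separate groups 17 were lower and 3 higher. The list medians relative to sorbitol were -1.0 and -1.04 in NaCl and -0.28 and -0.44 in KCl.

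Galactose and sugar transport genes had 3 of 21 higher and none lower, at a median of 0.84. None of the 3 calls held with quantile normalization, where the median was 0.58, or with the replicate block. Without the intensity trend 1 gene of the list was called, and without the filter on low values also 1. GAL1, the galactokinase, had 71.8 and 72.9 FPKM in NaCl, 106 and 128 in KCl, and 39.7 and 24.0 in sorbitol (log2 1.54 ± 0.30, adjusted p = 0.048). GAL10, the epimerase, rose by 1.64 ± 0.33 and GAL102, named after a related dehydratase, by 1.52 ± 0.24. GAL7, the transferase between them in the pathway, had 1.40 and did not pass (adjusted p = 0.081). GAL1 and GAL10 are neighbours in the annotation of the reference strain, as are GAL102 and GAL7, and GAL10 and GAL102 are 2 entries apart. The 3 calls are thus not 3 separate places in the genome. All 4 salt libraries lay above sorbitol in 11 of the 21 genes and below in none, and with the salts as separate groups 8 were higher.

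MLS1 had 58.4 and 83.9 FPKM in NaCl, 21.4 and 36.3 in KCl, and 6.25 and 7.60 in sorbitol. It was the 1 call among 36 genes of the glyoxylate cycle and fatty acid oxidation, which had a median of 0.36, and it was lost with quantile normalization and with the replicate block. Over all tested genes 2.05% were called higher, so 1 of 36 is near that share. ICL1, the isocitrate lyase and partner of MLS1, had 125 and 180 FPKM in NaCl, 33.8 and 62.9 in KCl, and 9.39 and 13.5 in sorbitol. All salt libraries of ICL1 were above sorbitol, but its log2 difference of 2.78 ± 0.61 did not pass (adjusted p = 0.059). In the 3-group fit 13 of the list were higher and 3 lower. Of 48 genes for respiration and the TCA cycle none passed, though 10 were lower and none higher at an unadjusted p under 0.05, and their median was -0.29, or -0.063 with quantile normalization. In 24 of them all salt libraries lay below sorbitol.

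In sulfur metabolism 1 of 21 genes was higher and 2 were lower, at a median of 0.19 (0.023 with quantile normalization). The rise was called under quantile normalization and with the replicate block, and the 2 falls under neither. MET3, the ATP sulfurylase that starts sulfate assimilation, had 92.7 and 102 FPKM in NaCl, 90.1 and 100.3 in KCl, and 35.2 and 44.8 in sorbitol (log2 1.25 ± 0.15, adjusted p = 0.025). The 4 salt libraries were nearly level, and YPD, at a mean of 10.3 FPKM, lay below sorbitol. CBF1, a factor that binds the promoters of sulfur genes in Saccharomyces cerevisiae, fell by 1.11 ± 0.22 and SAM2, which makes S-adenosylmethionine, by 1.03 ± 0.17.

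Amino acid synthesis gave no pooled call. The arginine and lysine list had 18 genes with a median log2 difference of 1.24, 2 of them higher at an unadjusted p under 0.05. The medians in single libraries were 2.52 and 2.15 in NaCl but 0.24 and 0.13 in KCl. LYS22, the homocitrate synthase of lysine synthesis, had 1318 and 1078 FPKM in NaCl, 170 and 121 in KCl, and 89.4 and 95.9 in sorbitol (log2 2.15, adjusted p = 0.23). CPA1, which makes carbamoyl phosphate for arginine, had 189 and 147 FPKM in NaCl, 15.3 and 13.8 in KCl, and 16.0 and 14.3 in sorbitol (log2 1.66 ± 1.11, adjusted p = 0.38). KCl lay at the sorbitol level in CPA1 and somewhat above it in LYS22. Counted with 3 groups, 14 of the 18 were higher and 1 lower, a count that a difference in NaCl alone can give. The 49 genes for other amino acids, with 7 higher and 2 lower at that level, had a median of 0.37, with 0.85 and 0.84 in NaCl and -0.02 and -0.05 in KCl.

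Of 31 genes for nitrogen sources 1 was higher and none lower, at a median of 0.70, and the call was lost with quantile normalization and with the replicate block. This is near the 2.05% called higher over all tested genes. UGA2, which breaks down GABA, had 51.6 and 56.1 FPKM in NaCl, 37.5 and 34.5 in KCl, and 17.1 and 20.6 in sorbitol (log2 1.19 ± 0.23, adjusted p = 0.047). By the 3-group fit, 10 of the list were higher and 2 lower. None of 18 amino acid transporter genes passed, with 2 positive and 2 negative differences under an unadjusted p of 0.05 and a median of 0.10 (-0.021 with quantile normalization).

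CTR1, the high-affinity copper importer, had 166 and 237 FPKM in NaCl, 415 and 388 in KCl, and 1253 and 1300 in sorbitol (log2 -2.17 ± 0.37, adjusted p = 0.044). It fell with the zinc transporter gene ZRT2 (-1.23 ± 0.22, adjusted p = 0.046), and these were the 2 falls among 37 iron, copper and zinc genes, with no rise and a median of -0.16. Both were lost with quantile normalization and with the replicate block. With the salts as separate groups 11 were lower and 2 higher. GDE1 had 33.0 and 28.6 FPKM in NaCl, 15.7 and 16.6 in KCl, and 5.19 and 7.53 in sorbitol. It was the 1 rise among 17 phosphate genes, whose median was -0.13. The call was lost in the same 2 settings and in others. Of the 9 alternative settings that left no library out, GDE1 was called in 4.

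DIT1 and DIT2 make the dityrosine layer of the spore wall in Saccharomyces cerevisiae. DIT1 had 0.795 and 0.648 FPKM in NaCl, 0.567 and 0.312 in KCl, and 9.89 and 11.5 in sorbitol (log2 -2.89 ± 0.23, adjusted p = 0.0032). DIT2 had 0.767 and 0.788 FPKM in NaCl, 0.276 and 0.842 in KCl, and 6.02 and 8.18 in sorbitol (log2 -2.28 ± 0.26, adjusted p = 0.020). All 4 salt libraries stood under 1 FPKM in both genes, while YPD had 2.59 and 2.94. The pair are neighbours in the reference annotation, and their salt values rest on few fragments. STF2, known in Saccharomyces cerevisiae for a role in survival of drying, fell by 1.40 ± 0.25 and RIB3, of riboflavin synthesis, by 1.42 ± 0.27.

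No gene of protein synthesis passed, though the list medians lay below 0. The median over 66 genes of cytosolic ribosomal proteins was -0.38, and 41 of them had all salt libraries below both sorbitol libraries. With quantile normalization that median became 0.062 and that of translation factors -0.092, so the first changes direction with the scaling. Ribosome biogenesis (90 genes, median -0.37), translation factors (45 genes, median -0.21) and mitochondrial ribosomal proteins (19 genes, median -0.34) also had no call. At an unadjusted p under 0.05, 25, 20, 10 and 4 genes of these lists, in the order given, were lower and none was higher. In the 3-group fit 13, 19, 9 and 1 genes of these 4 lists were lower and none was higher. The proteasome (28 genes, median 0.05) and the vacuole (26 genes, median 0.12) had none in the pooled test and 0 and 2 genes at that level. Of 38 hyphal, adhesin and mating genes, with a median of 0.01 (-0.025 with quantile normalization), RFG1 alone was called. In the list for efflux, with 16 tested genes, PDR16, a lipid transfer protein, rose by 0.76. UPC2, already counted among the sterol falls, was the fall of that list. These calls too were lost with quantile normalization and with the replicate block. The 1 rise among 38 genes of the hyphal list is near the 2.05% called higher over all tested genes.

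Between NaCl and KCl, 524 of the 5748 genes were called (9.12%), 333 higher in NaCl and 191 higher in KCl. Of the 187 genes called against sorbitol, 161 were not called between the salts. Of the others, 13 rose more in NaCl and 12 fell further in NaCl, against 1 that rose more in KCl and none that fell further there. By means alone, NaCl was the farther from sorbitol in 93 of the 118 rises and in 60 of the 69 falls. Over all tested genes NaCl had the larger mean in 2772 of 5748, a count that leaves out which salt was farther from sorbitol. Across genes NaCl was also the farther from sorbitol, with r between 0.931 and 0.934 against 0.968 to 0.981 for KCl. The number of all tested genes with NaCl farther from sorbitol was not counted, so this order is not shown to be particular to the called genes. The median size of the difference between the salts was 0.28 in the called genes and 0.25 in all genes.

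**Figure D4:**
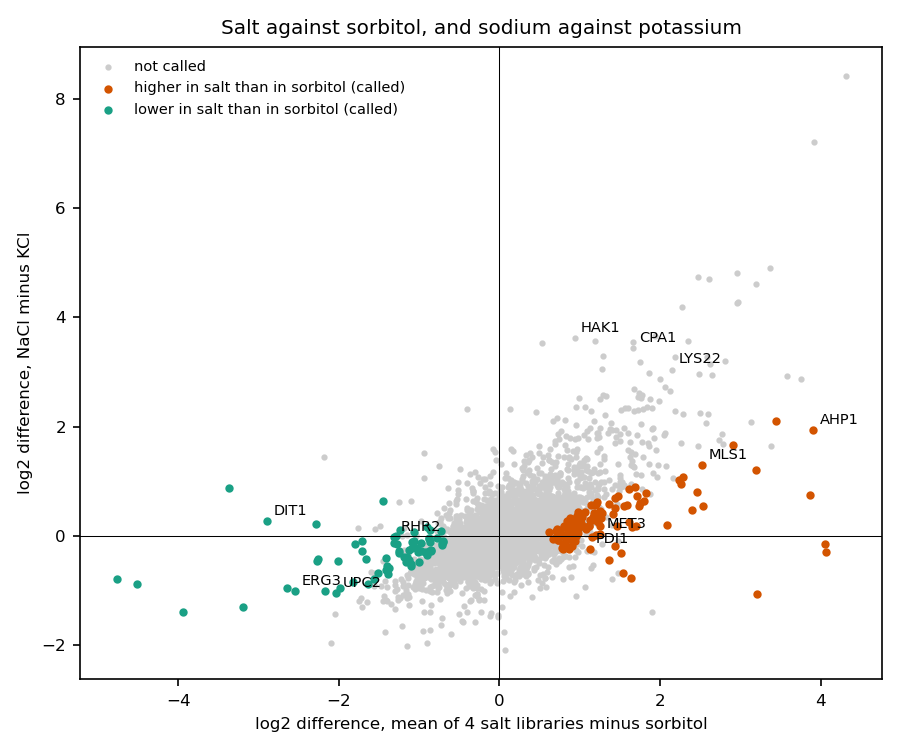
Each point is a tested gene, with its log2 difference between the pooled salts and sorbitol on the horizontal axis and between NaCl and KCl on the vertical axis; called genes are coloured. The 2 genes without a symbol that rose most lie near 0 on the vertical axis, while AHP1 lies high and ERG3 low.

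The YPD libraries, which took no part in the calls, show where the difference lay relative to the control. On a scale with the sorbitol mean at 0 and the salt mean at 1, YPD had a median place of 0.24 over the 118 rises and 0.17 over the 69 falls. It lay below 0 for 26 rises, from 0 to 0.5 for 69, from 0.5 to 1 for 20 and above 1 for 3. For the falls these numbers were 20, 38, 7 and 4. Both YPD libraries were on the sorbitol side of all 4 salt libraries in 112 of the 118 rises and 62 of the 69 falls. For most called genes, then, sorbitol and the control medium were nearer to each other than to salt. Sorbitol values enter both the calls and this scale, and the same counts were not made over all tested genes. The places are thus a description, and they are not shown to be particular to the called genes. INO1 (0.86) and GAL10 (0.69) were among the exceptions, where the YPD level was nearer to salt.

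**Figure D5:**
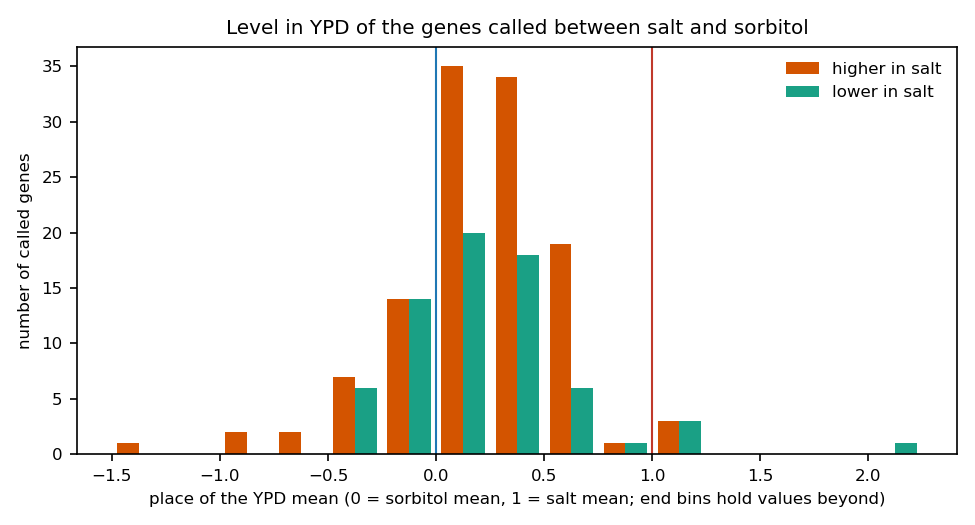
Number of called genes by the place of their YPD mean on a scale where the sorbitol mean is 0 and the salt mean is 1; the end bins also hold values beyond the axis. Most rises and most falls lie between 0 and 0.5.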

How the data were processed

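RNA-seq libraries were made from 4 media with 2 libraries each, and the 6 without YPD were compared. The authors deposited 1 value per gene and library. The deposited values were taken as FPKM, since no unit is given with them and, per the submitters' processing notes, TopHat and Cufflinks were used. For versions, genome build, annotation, strand setting and scaling, nothing is stated in the sources used here. After correction for length, 90.5% to 94.0% of low values per library came within 0.15 of whole steps, and 41.4% to 49.7% did so after random jitter. No counts were held, so no counting interval is given.

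Symbols came from RefSeq (assembly Hypbu1, another strain), with 6157 of 6166 genes matched by locus tag and 9 listed by symbol. Without the strand setting, reads of overlapping genes cannot be told apart. Of 171 tRNA genes 1 was tested.

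Genes that reached 1 FPKM in 2 or more of the 6 libraries were fitted as log2(FPKM + 1) with limma 3.58.1 in R 4.3.3 (intensity trend, 2-sided, Benjamini-Hochberg over 5748 genes, adjusted p under 0.05). Residual degrees of freedom were 4 in the pooled fit (7.28 in all with the prior) and 3 in the 3-group fit used for NaCl against KCl (7.15 in all). The scripts were tested on simulated data.

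The comparison, the 31 gene lists and the naming rule were chosen with earlier results of these data known. Named genes were the 12 largest rises and 12 largest falls with a symbol, up to 4 called members per list, all members of the cation, ion, glycerol and HOG lists, and up to 8 called genes that also differed between the salts. At most 2 genes without a symbol were named in each direction. Other genes are named as chosen after their values were seen, or as further members of a list. Lists are described by counts and medians, without a test. Alternatives tried were the pseudocount, the filter, 2 scalings, the variance trend, the replicate block, all 8 libraries, the salts as separate groups, and each library left out. The replicate 1 minus 2 differences correlated across genes at 0.355 (NaCl and KCl), 0.101 (NaCl and sorbitol) and 0.493 (KCl and sorbitol). Same-numbered libraries thus deviated together where KCl was one of the pair, and little between NaCl and sorbitol. The labels give the numbers no meaning. Values with the replicate block are printed beside the results they change.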

Additional observations from a re-analysis of the deposited data

Results flagged for a closer look

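Among the called genes named in the text, 12 also differed between NaCl and KCl in the fit of 3 groups. The log2 difference, NaCl minus KCl, was 1.94 in AHP1, 1.3 in MLS1, 0.886 in GDE1 and 0.543 in SOD1, all higher in NaCl, so these rises were larger there. It was -0.51 in PFK1, -0.563 in CBF1, -0.791 in ERG4, -0.883 in SCS7, -1.06 in UPC2, -1.01 in CTR1, -1.01 in ERG3 and -0.89 in HYPBUDRAFT_157712, all lower in NaCl, so these falls were deeper there.

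In 4 of the 114 named genes 1 of the 4 salt libraries stood apart, with its gap to the nearest library over the whole range above Dixon's critical value for 4 samples. The ratio was 0.891 in CAP1, 0.972 in RIM8 and 0.887 in DIT2, with KCl 1 as the library apart, and 0.872 in CHK1, with NaCl 2 apart. Chance alone flags about 1 in 20 such groups, and the 4 libraries span 2 media.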

How the results depend on the processing

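The count of genes called against sorbitol was 187 (118 higher, 69 lower). It fell to 64 (39 and 25) with quantile normalization and to 83 (48 and 35) without the intensity trend. It rose to 1200 (700 and 500) with the salts as separate groups and to 1307 (775 and 532) with all 8 libraries in 4 groups. Leaving out 1 library gave 2 to 621 calls (2 to 336 higher, 0 to 285 lower), and 171 to 465 calls between NaCl and KCl in place of 524. The other pseudocount, both other filters and median-of-ratios scaling stayed within 1.5 times of the main counts, but not list by list. Called rises of the DNA replication list went from 6 to 2 without a filter and to 3 with median-of-ratios scaling. Those of the galactose and sugar list went from 3 to 1 and to 2. Without the intensity trend, calls went from 6 to 2 and from 3 to 1 in these lists. They went from 4 to 0 in the cell wall list and from 5 to 2 in the ER list. No called gene named in the text changed sign in any setting. Quantile normalization moved the median of all genes to -0.06. It turned the list medians of oxidative stress defence to 0.042, cytosolic ribosomal proteins to 0.062 and the cell wall to 0.043, and it also turned the near-zero medians of the HOG pathway to -0.080, amino acid transport to -0.021 and hyphal genes to -0.025. It shrank those of glycolysis to -0.33 and of respiration and the TCA cycle to -0.063. Over the fits without 1 library, the median ran from -0.10 to 0.026 for oxidative stress defence, from -0.20 to 0.12 for glycerol and polyol metabolism, from -0.11 to 0.0052 for the cell wall and from -0.17 to 0.059 for phosphate. The sign turned without a sorbitol library in each, and for glycerol and polyol metabolism also without NaCl 1 (-0.087) and without NaCl 2 (-0.11). Other medians near 0 turned too. That of fatty acids, sphingolipids and phospholipids became -0.040 without sorbitol 2, and that of ion homeostasis regulators 0.074 without KCl 2. Without NaCl 1, those of the proteasome, the HOG pathway and hyphal genes became -0.023, -0.044 and -0.044. Depth, known only as an estimate, limits genes near 1 FPKM most.

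With the replicate number as a block, 15 genes were called against sorbitol (5 higher, 10 lower) and 817 between the salts. Whether the number marks a shared culture or day is not stated.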

Other observations

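Other called genes with a symbol, outside the naming rule and picked after their values were seen, were spread over DNA repair, mitochondria and RNA. MSH6, a mismatch repair protein, rose by 0.92 on the log2 scale, DCC1, which helps load the sliding clamp, by 1.25, and RAD32, named after a nuclease of break repair, by 0.93. CEM1 and YHM2, both mitochondrial, rose by 1.22 and 1.01. The adenine deaminase gene AAH1 fell by 1.15, the splicing helicase gene PRP5 by 1.02 and the tRNA splicing gene SEN15 by 0.88. PGA18, a cell surface protein by its symbol, fell by 1.16 from sorbitol to salt but had its lowest level in YPD, at a mean of 17.9 FPKM. Of the 187 called genes, 137 were in none of the 31 lists.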
